A study of Mus musculus with 10 samples.

Results

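The 9 genes of pericellular proteolysis were examined, a set of proteases and inhibitors that act at or near the cell surface: the matrix metalloproteinase genes Mmp9 and Mmp14, the metalloproteinase inhibitor genes Timp2 and Timp3, the urokinase gene Plau and its receptor gene Plaur, the ADAM-family genes Adamts1 and Adam17, and the matriptase gene St14. They were taken by gene symbol from a table of 18586 genes measured by bulk RNA-seq in mouse tongue epithelial primary cultures. Of the 9, 8 were found in the table and 7 passed the filter on low values, which required at least 1 TPM (a level scaled by transcript length and by the library total) in at least 4 libraries and left 11630 genes for testing. Timp3 was under the filter, and Mmp9 was not analysed here.

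All cultures carried Krt14-CreERT, LSL-rtTA and the tetON_H2B-GFP reporter, so that transgenes are switched on by tamoxifen and doxycycline in cells that use the promoter of the basal keratin gene Krt14. The 6 EY libraries also carried tetON_E6-E7, the oncogenes of a human papillomavirus, and tetON_YAP1S127A, a YAP1 form that escapes inhibitory phosphorylation. The 4 N libraries carried neither oncogene. Epithelium was taken 15 days after induction, and H2B-GFP+ cells were sorted and grown with doxycycline, so that both groups describe selected cells in culture and not tongue tissue. EY comprised 3 culture lines with 2 libraries each, named EY3960, EY4028 and EY4174, whereas N was the line N4172 alone. Genotype and line cannot be told apart, libraries of a line are not independent animals, and p-values over libraries may reflect spread that is technical. EY replicates 1 and 4 were EY3960, replicates 2 and 5 EY4028, and replicates 3 and 6 EY4174.

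Epithelial cells remodel the matrix beneath them with enzymes held at their surface. Urokinase bound to its receptor converts plasminogen to plasmin, which degrades fibrin and matrix proteins and activates other proteases, while MMP14, a membrane-anchored collagenase, works with TIMP2 to activate the gelatinase MMP2. Matriptase and ADAM17 cleave membrane proteins, ADAM17 being the main sheddase of TNF and of several EGF receptor ligands, and TIMPs and serpins restrain these enzymes.

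The libraries held between 10852 and 11522 genes at 1 TPM or more, and their read depth is unknown because TPM does not keep it. Yap1, the mouse gene at which reads of the transgene may be counted, ranged from 34.7 to 57.1 TPM in EY and from 17.2 to 20.9 TPM in N. All 8 epithelial markers were present, with summed levels of 4291 to 7246 TPM in EY and 5284 to 5973 TPM in N. Of 10 fibroblast markers, 3 had a value and these summed to at most 1.12 TPM in EY and 1.63 TPM in N. The leukocyte marker list, with 4 of 10 genes in the table, summed to between 29.4 and 72.0 TPM in EY and between 42.2 and 69.1 TPM in N, almost wholly Cd68, while the defining leukocyte gene Ptprc did not exceed 0.347 TPM. Granulocyte markers, 6 of 13 in the table, summed to 17.3 to 82.7 TPM in EY and 2.00 to 10.5 TPM in N. That sum was led by S100a8 and S100a9, which keratinocytes also express, and no other gene of that list exceeded 1.5 TPM. This sum was higher in every EY library than in any N library, and its part in the differences described for the members was not tested. Endothelial markers, with 4 of 6 genes in the table, summed to at most 0.697 TPM and skeletal muscle markers, with 2 of 6, to at most 0.933 TPM in any library. N replicate 4 stood apart from the other N libraries at several genes, and values without it are given beside some of those genes. In bulk samples, fewer cells of a type and less RNA per cell cannot be told apart.

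The 250 bases before the start of transcription are shown for the members whose levels separated the cultures most clearly and that have an entry in the RefSeq promoters of build GRCm38.p6, which held 6 of the 8 members but neither Plau nor St14. Sequences are on the strand of the gene, 5′ to 3′. Plaur, chr7:24462233-24462482 (plus strand), is a member whose EY libraries were all above N. Timp2, chr11:118355412-118355661 (minus strand), and Adamts1, chr16:85803114-85803363 (minus strand), are the pair that was lowest in EY3960. Capitals mark the letters TGANTCA of an AP-1 site.
Plaur: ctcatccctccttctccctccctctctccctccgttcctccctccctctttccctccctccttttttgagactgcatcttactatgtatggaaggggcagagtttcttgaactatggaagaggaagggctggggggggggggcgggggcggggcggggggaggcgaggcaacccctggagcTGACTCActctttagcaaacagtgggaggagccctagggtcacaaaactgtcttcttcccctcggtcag
Timp2: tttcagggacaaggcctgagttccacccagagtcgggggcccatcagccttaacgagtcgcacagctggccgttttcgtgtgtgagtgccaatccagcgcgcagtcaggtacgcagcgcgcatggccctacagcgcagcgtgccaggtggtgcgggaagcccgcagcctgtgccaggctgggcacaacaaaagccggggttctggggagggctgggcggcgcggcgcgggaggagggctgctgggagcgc
Adamts1: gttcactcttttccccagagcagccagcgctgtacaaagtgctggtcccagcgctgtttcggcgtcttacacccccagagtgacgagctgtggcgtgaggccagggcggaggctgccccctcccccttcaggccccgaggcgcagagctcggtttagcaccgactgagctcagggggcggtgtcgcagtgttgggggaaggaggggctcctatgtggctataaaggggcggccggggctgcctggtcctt
The AP-1 letters (TGANTCA, which reads the same on both strands) were found in 1 of the 6 members, Plaur, starting at position -69 from the start of transcription, and in 6.75% of 32851 windows of the same length. The letters GGAATG of a site for TEAD, the DNA-binding partner of YAP, were searched on both strands and found in 0 of the 6, against 12.6% of all windows. A match is a description of these letters only.

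EY was set against N to ask which members differ where YAP1 and E6-E7 are active. In this comparison 0 of the 7 tested members were called, where a call in limma required an adjusted p under 0.01 and a log2 fold change beyond 1 in either direction, and 3.55% of all tested genes were called, 1.85% higher and 1.7% lower in EY. At an unadjusted p under 0.05 there were 3 members, Plau, Plaur and St14. The share of all tested genes at that level was not taken, so this count has no background beside it. The adjusted p was under 0.01 without the fold requirement for 2 members, Plaur and St14, against 11.8% of all genes. In 3 members, Plau, Plaur and St14, all 6 EY libraries lay above all 4 N libraries, and 20.4% of all tested genes had groups that did not overlap in either direction.

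**Figure D1:**
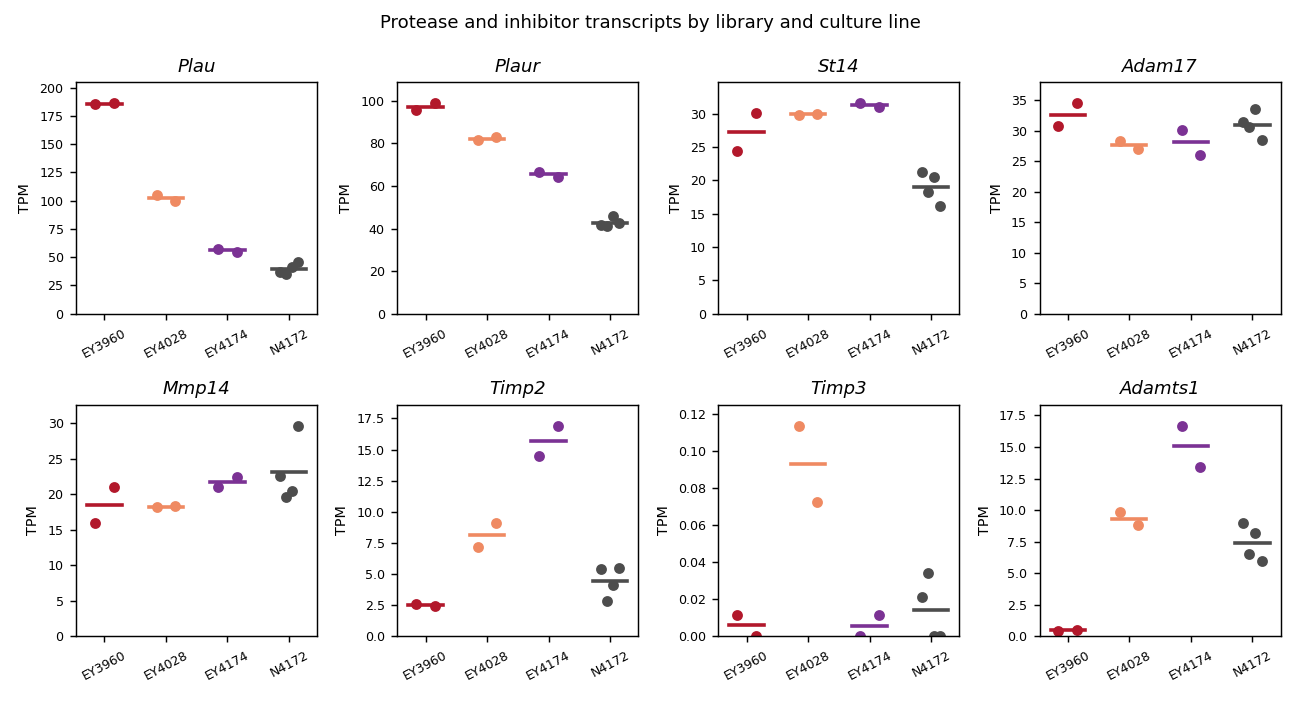
Level of each of the 8 measured members in every library, in TPM on a linear axis from 0, by culture line (2 libraries for each EY line, 4 for N4172). Points are libraries and bars are line means. Plau, Plaur and St14 were above N in every EY library, while Timp2 and Adamts1 ran from lowest in EY3960 to highest in EY4174.

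Plau, which encodes urokinase, was the most abundant member in EY and the one with the widest fold difference from N among those that did not overlap. It was measured at 185 and 186 TPM in EY3960, 105 and 100.2 TPM in EY4028, and 57.6 and 54.4 TPM in EY4174. The N libraries had 37.1, 35.3, 41.2 and 45.9 TPM. All EY libraries were above all N libraries, and the lines formed steps, with EY4174 nearest to N. N averaged 39.9 ± 4.71 TPM (SD, n = 4) and EY 115 ± 58.8 TPM (SD, n = 6), a 2.88-fold ratio. On log2(TPM + 1) the difference was 1.35 (SE 0.37, adjusted p = 0.0256), which missed the call. With EY4174, the line nearest to N, left out the difference was 1.78 and would have been called (adjusted p = 0.000484). Other alternatives did not call Plau. The adjusted p was 0.108 with the line as a random block and 0.153 with a block by sample number. With any single library left out it was between 0.0104 and 0.0728.

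Each line was then set against N in a model with 4 line means. Plau was 4.66-fold the N mean in EY3960 (log2 fold change 2.20, adjusted p = 9.7e-08) and 2.58-fold in EY4028 (1.35, adjusted p = 5.56e-06), both called. In EY4174 the ratio was 1.40-fold (0.49, adjusted p = 0.00513), under the fold threshold. The EY lines differed from each other by up to 1.71 on the log2 scale (limma's F test, adjusted p = 1.01e-05), while the libraries of an EY line differed by at most 0.082 and those of N by 0.37.

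Plaur encodes the receptor that holds urokinase at the cell surface. Its levels were 95.7 and 98.8 TPM in EY3960, 81.7 and 82.7 TPM in EY4028, 66.5 and 64.3 TPM in EY4174, and 41.5, 41.3, 45.9 and 42.4 TPM in N. The lines were in the same order as for Plau, with smaller steps and with EY4174 clear of N. N averaged 42.8 ± 2.11 TPM (SD, n = 4), and EY 81.6 ± 14.3 TPM (SD, n = 6). The log2 difference was 0.90 (SE 0.12, adjusted p = 0.000345), under the fold threshold and so not called. It was the only member with an adjusted p under 0.01 when the line was fitted as a random block (adjusted p = 0.00548). That fit still has a single N line. With a block by sample number the adjusted p of Plaur was 0.0149. By line, Plaur was called in EY3960 (log2 fold change 1.17, adjusted p = 9.39e-07), and reached 0.93 in EY4028 (adjusted p = 8.3e-06) and 0.60 in EY4174 (adjusted p = 0.000198). The F test among EY lines gave an adjusted p of 0.00282 with a range of 0.57, under the threshold of 1.

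St14 encodes matriptase, a membrane-anchored serine protease of epithelia. It was measured at 24.3 and 30.1 TPM in EY3960, 29.8 and 30.0 TPM in EY4028, and 31.5 and 31.0 TPM in EY4174. The N libraries had 21.2, 18.2, 20.5 and 16.2 TPM, all under the lowest EY library. Here the EY lines lay together (range 0.20 on the log2 scale, adjusted p = 0.523). N averaged 19.0 ± 2.29 TPM (SD, n = 4) and EY 29.5 ± 2.59 TPM (SD, n = 6), and the log2 difference was 0.61 (SE 0.10, adjusted p = 0.00119), under the fold threshold. With the line as a random block the adjusted p was 0.054.

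Adam17, the sheddase gene, overlapped between the groups. It had 30.8, 34.5, 28.3, 27.0, 30.2 and 26.1 TPM in the EY libraries, taken line by line, and 31.4, 30.6, 33.5 and 28.4 TPM in N. The log2 difference was -0.07 (SE 0.09, adjusted p = 0.587), and among EY lines the range was 0.23 (adjusted p = 0.266).

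Mmp14, which encodes the membrane-anchored collagenase MT1-MMP, also overlapped. The EY3960 libraries had 16.0 and 21.0 TPM, EY4028 18.2 and 18.3 TPM, and EY4174 21.0 and 22.4 TPM, against 22.6, 19.6, 20.5 and 29.7 TPM in N. The highest value was that of N replicate 4. The log2 difference was -0.22 (SE 0.13, adjusted p = 0.226), and -0.10 without N replicate 4 (adjusted p = 0.538).

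Timp2, the inhibitor that binds MMP14, and Adamts1, a secreted protease that cleaves proteoglycans, were called among the EY lines and not in the pooled comparison of EY with N. Timp2 had 2.62 and 2.40 TPM in EY3960, 7.19 and 9.08 TPM in EY4028, 14.5 and 16.9 TPM in EY4174, and 5.41, 2.85, 4.14 and 5.44 TPM in N. N therefore lay between EY3960 and EY4028, although N replicate 2 was close to EY3960. The pooled difference was 0.60 (SE 0.49, adjusted p = 0.416) and its error was nearly as large as the value. In EY4174, Timp2 was 3.52-fold the N mean and was called (log2 fold change 1.64, adjusted p = 0.00023), whereas EY3960 stood at -0.61 (adjusted p = 0.0464) and EY4028 at 0.77 (adjusted p = 0.0169). The range among EY lines was 2.25 (adjusted p = 2.46e-04). Without line EY3960, the only EY line under N, the pooled difference was 1.20 and was called (adjusted p = 0.00977). Without line EY4174 it was 0.08 (adjusted p = 0.894). With the line as a random block the adjusted p of Timp2 was 0.654.

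On the log2 scale, Adamts1 had the widest range of line means of any member. It stood at 0.424 and 0.495 TPM in EY3960, 9.81 and 8.81 TPM in EY4028, 16.7 and 13.4 TPM in EY4174, and 8.96, 6.49, 8.20 and 5.98 TPM in N. EY3960 was far under every other library, and EY4174 above every other library. The EY3960 mean was 16.1-fold lower than that of N and was called (log2 fold change -2.51, adjusted p = 1.28e-06). EY4174 was 2.03-fold higher with a log2 fold change of 0.94 (adjusted p = 0.00186), just under the threshold. It would have been called without N replicate 1 (1.03, adjusted p = 0.0017). Without EY replicate 6 the log2 fold change was 1.09, but EY4174 then rests on 1 library that is assumed to vary like the other lines. Over all runs with a library left out, the log2 fold change in EY4174 ranged from 0.80 to 1.09. EY4028 was at 0.31 (adjusted p = 0.181). The pooled log2 difference of -0.42 (SE 0.81, adjusted p = 0.743) turned to 0.63 without EY3960 (adjusted p = 0.0397). The F test among EY lines gave a range of 3.45 (adjusted p = 1.13e-06).

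Timp3, an inhibitor of ADAM17 and of ADAMTS proteases that is bound to matrix, was listed at or near 0. The EY3960 libraries had 0.0116 and 0 TPM, EY4028 0.114 and 0.0726 TPM, EY4174 0 and 0.0113 TPM, and N 0.0214, 0.0343, 0 and 0 TPM. The difference of means on log2(TPM + 1) was 0.028 (exact permutation p = 0.543), and no library reached 1 TPM.

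Over the 3 lines, 3 members were called in EY3960 (Plau, Plaur and Adamts1, the last one lower), against 7.04% of tested genes. In EY4028 the count was 1 (Plau), against 5.74%, and in EY4174 it was 1 (Timp2), against 4.95%. These comparisons share the N libraries. None of the members was called in the same direction in all 3 lines, as 2.1% of genes were. Among the EY lines, 3 of 7 members were called (Timp2, Plau and Adamts1), against 5.12% of genes.

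**Figure D2:**
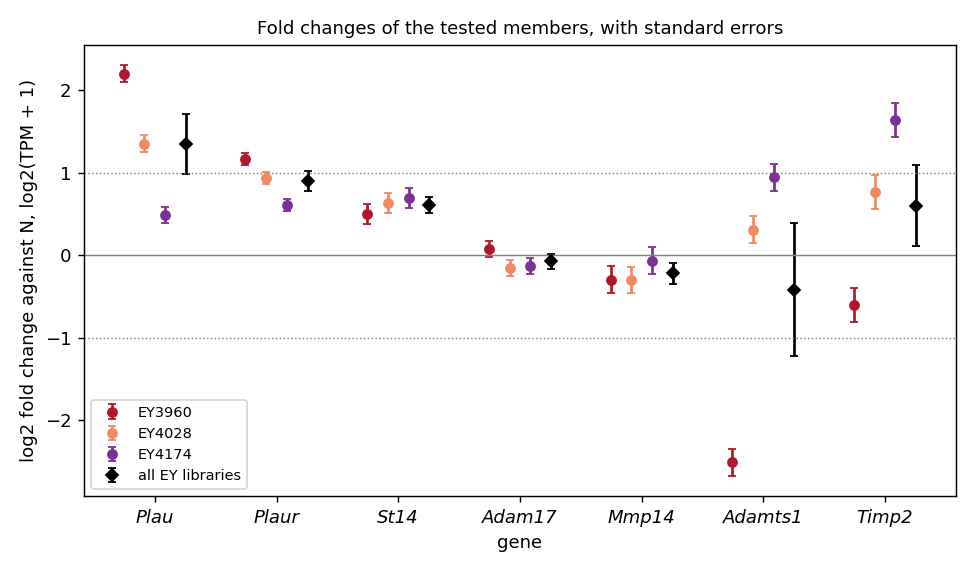
Log2 fold change against N on log2(TPM + 1) for the 7 tested members, in each EY line (circles) and in all EY libraries together (diamonds). Bars are standard errors from limma and dotted lines mark the fold threshold of 1 in either direction. Pooled errors are wide for Adamts1 and Timp2, whose line values stood on both sides of 0.

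The members fell into an order of levels that changed with the line. In N, Plaur (42.8 TPM) and Plau (39.9 TPM) were followed by Adam17, Mmp14 and St14, then by Adamts1 and Timp2. The ranges of neighbours overlapped between Plaur and Plau, between Adam17 and Mmp14, and between Mmp14 and St14. In EY3960 Plau was well above Plaur, whereas in EY4174 Plaur (65.4 TPM) was above Plau (56.0 TPM) and Timp2 (15.7 TPM) and Adamts1 (15.1 TPM) were near one another. Timp3 was last in every line.

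Line means on the log2 scale ran from EY3960 through EY4028 and EY4174 down to N for 2 of the 7 tested members, Plau and Plaur. That order was seen in 7.27% of all tested genes. For another 2 members, Timp2 and Adamts1, the order was EY4174, EY4028, N and EY3960 from high to low, which 4.92% of tested genes had. The 2 orders were looked for after the values had been seen.

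Protease levels were next set against those of an inhibitor or receptor in the same library, as differences of log2(TPM + 1). Of 5 ratios examined, 0 differed between EY and N at an adjusted p under 0.05 in an exact two-sided permutation test over libraries, for which 0.00952 is the smallest p that 6 against 4 libraries allow. The Mmp14 to Timp2 ratio differed by -0.82 (exact permutation p = 0.124, adjusted p = 0.333). Its line means were 2.46 in EY3960, 1.08 in EY4028 and 0.45 in EY4174, against 2.15 in N, so that EY3960 was near N and EY4174 furthest from it.

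The Plau to Plaur ratio differed by 0.45 (exact permutation p = 0.133, adjusted p = 0.333), with line means of 0.93 in EY3960, 0.32 in EY4028 and -0.22 in EY4174 and a mean of -0.10 in N. The St14 to Spint1 ratio, matriptase against its inhibitor HAI-1, differed by 0.28 (exact permutation p = 0.305, adjusted p = 0.452). It was lowest in EY3960, at 0.26, and highest in EY4174, at 1.29, with N at 0.58. Ratios of Adam17 and Adamts1 to Timp3 repeat the protease level because Timp3 was near 0, and differed by -0.10 (exact permutation p = 0.362) and -0.45 (exact permutation p = 0.629).

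**Figure D3:**
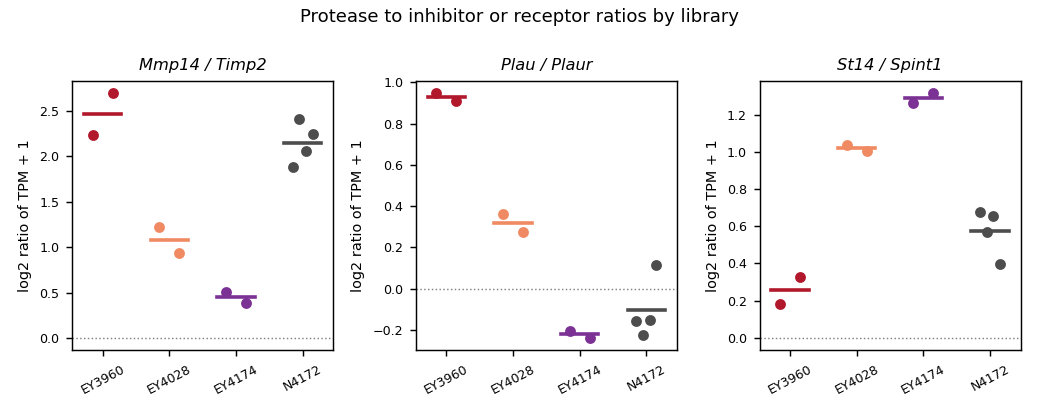
Log2 ratio of TPM + 1 between a protease and an inhibitor or receptor in each library, by culture line. Points are libraries and bars are line means. The 3 EY lines were spread on both sides of N for St14 to Spint1 and for Mmp14 to Timp2, and EY4174 lay by N for Plau to Plaur.

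Genes of the same pathways were taken from lists written from general knowledge, in all 133 genes including the members. The table held 106 of them and 73 were tested. Of the 73 tested genes, 5 were called higher in EY (Mmp13, Adam8, Tspan15, Tnf and Cst6) and 0 lower, against 1.85% higher and 1.7% lower of all tested genes. With the line as a random block, Tnf (adjusted p = 0.00247) and Cst6 (adjusted p = 0.00211) were still called and the other 3 were not. Without N replicate 4, the call was lost for Mmp13 and gained for Plat, Prss8 and Col4a2. At an adjusted p under 0.01 alone, 19 were higher and 1, Mmp15, was lower, against 11.8% of all tested genes in either direction. The median log2 difference of the 73 was 0.35, against 0.03 over all tested genes, and in 25 of them the groups did not overlap, against 20.4% of all tested genes.

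Among 7 tested genes of plasminogen activation 0 were called and 3 had an adjusted p under 0.01. They were Plaur, Plat and S100a10, a plasminogen-binding surface protein. Plat, the tissue-type activator, had line means of 15.3, 10.001 and 7.11 TPM in EY3960, EY4028 and EY4174 against 4.73 TPM in N, a log2 difference of 0.99 (SE 0.22, adjusted p = 0.00735). N replicate 4 was highest of N for Plat and S100a10, and without it the log2 difference was 1.08 for Plat (adjusted p = 0.00927) and 0.60 for S100a10 (adjusted p = 0.00142). Besides Plau and Plaur, whose shared order was noticed first, Plat, Anxa2 and S100a10 of the 7 had that order of line means. It was the order of 7.27% of all tested genes. For Anxa2 and S100a10 it held for means only, since N replicate 4 (1682.5 and 1748.4 TPM) was above every EY4174 library (highest 1555.6 and 1728.7 TPM). Plat, Anxa2 and S100a10 were singled out after their values were seen.

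Of 2 tested inhibitors of the plasminogen system, 0 were called. Serpine2, named after its values were seen, had line means of 112, 121 and 65.2 TPM in EY3960, EY4028 and EY4174 against 120 TPM in N. Its log2 difference was -0.30 (SE 0.22, adjusted p = 0.342), and -0.85 in EY4174 (adjusted p = 0.00185). N replicate 4 was its lowest N library, and without it the pooled difference was -0.43 (adjusted p = 0.193). Serpinb2, which encodes the urokinase inhibitor PAI-2, reached 571, 392 and 121 TPM as means of EY3960, EY4028 and EY4174 against 63.9 TPM in N. All EY libraries (lowest 104.8 TPM) lay above all N libraries (highest 79.6 TPM), in the order of lines seen for Plau. The log2 difference was 2.23 (SE 0.52, adjusted p = 0.0149), and was called without EY replicate 6 (adjusted p = 0.00327). With the line as a random block the adjusted p of Serpinb2 was 0.0787.

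Of 4 tested secreted MMPs, 1 was called. Mmp13, a collagenase, had line means of 1.68, 1.68 and 0.377 TPM and was listed at 0 in 3 of the 4 N libraries and at 0.0251 TPM in N replicate 4 (log2 difference 1.09, SE 0.24, adjusted p = 0.00616). These are low levels, and the call was lost when any of EY replicates 1, 2, 4 and 5 or any of the 4 N libraries was left out (adjusted p between 0.0124 and 0.0206), with the line as a random block (adjusted p = 0.0531) and with a block by sample number (adjusted p = 0.0855). Leaving out line EY3960 (adjusted p = 0.0215) or line EY4028 (adjusted p = 0.0346) also lost the Mmp13 call. Mmp1b, of the interstitial collagenase group, was at 1.97 TPM in EY and 0.619 TPM in N (log2 difference 0.86, adjusted p = 0.00128). Mmp10, a stromelysin named here after its values were seen, was at 7.95, 2.12 and 0.308 TPM in EY3960, EY4028 and EY4174 and 0.245 TPM in N (pooled adjusted p = 0.106). Mmp15, another membrane-type MMP, was at 0.804 TPM in EY and 1.71 TPM in N (log2 difference -0.59, adjusted p = 0.00711, and -0.51 with adjusted p = 0.0178 without N replicate 4).

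Timp1, the inhibitor tested beside Timp2, had line means of 12.8, 24.0 and 35.2 TPM against 14.4 TPM in N (log2 difference 0.59, SE 0.29, adjusted p = 0.169). It followed the same order of lines as Timp2 and differed among EY lines (range 1.39, adjusted p = 0.000211). N replicate 4 was highest in N, at 16.8 TPM, and without it the log2 difference was 0.66 (adjusted p = 0.18). Fn1, the matrix protein fibronectin, had line means of 1.35, 14.2 and 16.4 TPM and 6.67 TPM in N, also lowest in EY3960 (range 2.89, adjusted p = 4.33e-07). Fn1 was named after its values were seen.

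**Figure D4:**
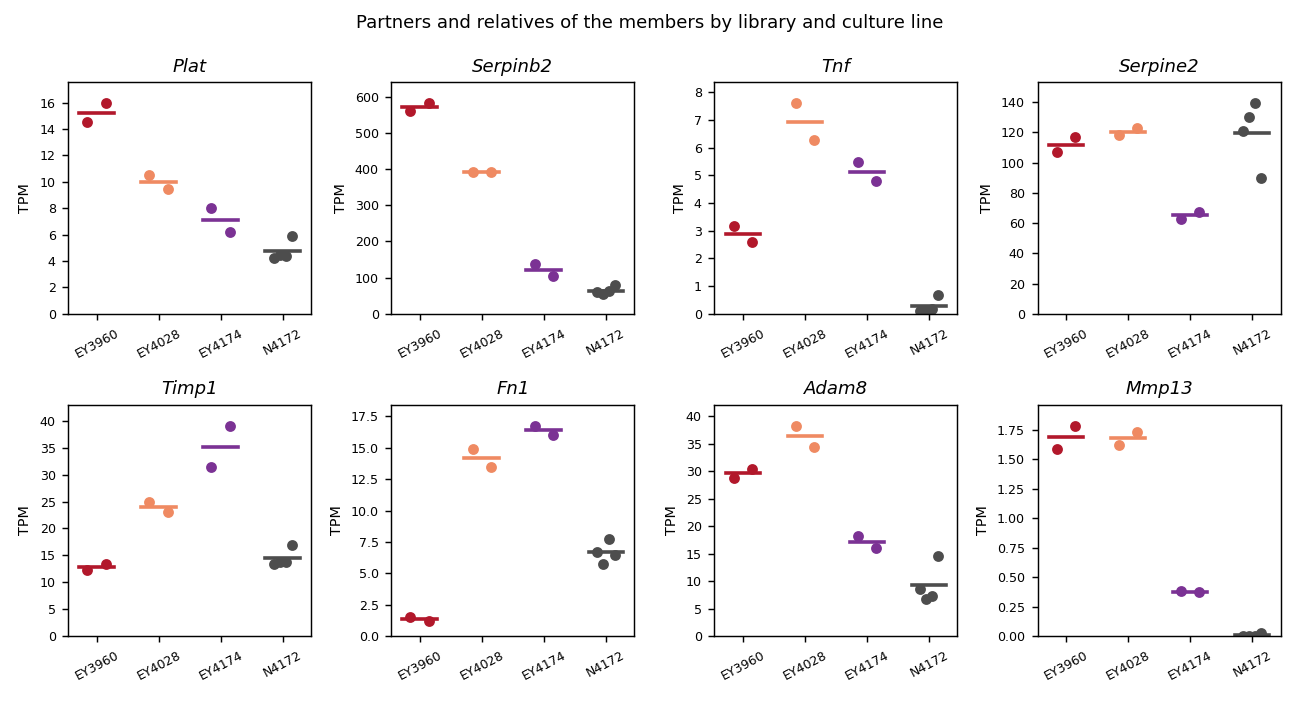
Level in TPM, on a linear axis from 0, of 8 genes related to the members in every library, by culture line. Points are libraries and bars are line means. Plat and Serpinb2 stepped down from EY3960 to N, while Serpine2 was lowest in EY4174. Timp1 and Fn1 were highest in EY4174, and N replicate 4 was highest of N for Adam8 and Tnf.

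Among 5 tested ADAM sheddases, 1 was called. Adam8, which encodes a membrane sheddase, had line means of 29.6, 36.3 and 17.1 TPM against 9.29 TPM in N (log2 difference 1.47, SE 0.27, adjusted p = 0.00315). The call was lost without any of N replicates 1, 2 and 3 (adjusted p between 0.0129 and 0.014), with the line as a random block (adjusted p = 0.0544) and with a block by sample number (adjusted p = 0.0195), and N replicate 4 was highest in N, the log2 difference without it being 1.69 (adjusted p = 0.00137). Leaving out line EY3960 (adjusted p = 0.0157) or line EY4028 (adjusted p = 0.0143) also lost the Adam8 call. Of 7 tested cofactors of ADAM10 and ADAM17, 1 was called. It was Tspan15, a tetraspanin partner of ADAM10, at 3.56 TPM in EY and 0.802 TPM in N (log2 difference 1.30, SE 0.23, adjusted p = 0.0017). The call was lost with the line as a random block (adjusted p = 0.04) and with a block by sample number (adjusted p = 0.0248).

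Of 9 tested ADAM17 substrates, 1 was called. Tnf, the cytokine that ADAM17 releases, had line means of 2.89, 6.93 and 5.13 TPM against 0.263 TPM in N (log2 difference 2.20, SE 0.24, adjusted p = 7.82e-05), and was called higher in each of the 3 EY lines. N replicate 4 had 0.677 TPM, and without it the log2 difference was 2.35 (adjusted p = 0.000155). The EGF receptor ligand genes Tgfa (14.4 TPM in EY, 8.61 TPM in N, adjusted p = 0.00202) and Hbegf (56.2 TPM in EY, 33.5 TPM in N, adjusted p = 0.0029) had log2 differences of 0.68 and 0.75, under the threshold. The other ligand genes of the list were Areg at 0.77 (adjusted p = 0.132), Ereg at 1.35 (adjusted p = 0.0672) and Epgn at -0.06 (adjusted p = 0.802). All 5 ligand genes were named after their values were seen. N replicate 4 was lowest of N for Hbegf, Areg, Ereg and Epgn. Without it their log2 differences were 0.59, 0.45, 1.11 and -0.27 (adjusted p = 0.00336, 0.28, 0.149 and 0.0221).

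Among 8 tested genes listed as membrane-anchored serine proteases 0 were called, and 3 had an adjusted p under 0.01, St14, Prss8 and Prss22. Prss8, which encodes prostasin, a partner of matriptase named after its values were seen, was at 10.9 TPM in EY and 5.26 TPM in N (log2 difference 0.92, adjusted p = 0.0079). N replicate 4 was highest of N, at 7.94 TPM, and without it Prss8 was called (1.11, adjusted p = 0.00243). Of the 8, 4 had a negative log2 difference, among them Tmprss11f at -0.67 (adjusted p = 0.0108) and Tmprss4 at -1.24 (adjusted p = 0.0432). These 2 membrane serine proteases were also named after their values were seen. The Tmprss4 gap was mostly that of EY4028 (mean 0.717 TPM) and EY4174 (mean 0.802 TPM). Its EY3960 libraries, with 3.51 and 4.49 TPM, overlapped the N range of 3.57 to 8.71 TPM. The top of that range was N replicate 4, and leaving this library out gave Tmprss4 a pooled difference of -0.99 (adjusted p = 0.105). Of the 3 tested genes of matriptase inhibitors and the receptor PAR2, 0 were called. Spint2, the HAI-2 inhibitor, was at 84.1 TPM in EY and 57.6 TPM in N (log2 difference 0.55, adjusted p = 0.00339, and 0.68 without N replicate 4). Spint1 was at 22.5, 14.2 and 12.2 TPM by line and 12.4 TPM in N (log2 difference 0.33, adjusted p = 0.204).

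In the remaining lists, 1 of 8 cathepsins and cystatins was called, Cst6, a secreted cysteine protease inhibitor (18.4 TPM in EY, 7.15 TPM in N, log2 difference 1.23, SE 0.14, adjusted p = 0.000104). Ctsz, a cathepsin, was called lower in each EY line against N but not in the pooled fit (log2 difference -1.95, SE 0.55, adjusted p = 0.0288, and -1.84 without N replicate 4). It stood at 0.446 TPM in EY3960, 5.98 TPM in EY4028 and 5.24 TPM in EY4174 against 14.3 TPM in N. Among 12 basement membrane substrates 0 were called. Col4a2, a type IV collagen chain, had the smallest p of that list, with 3.35 TPM in EY and 1.23 TPM in N (log2 difference 0.95, adjusted p = 0.00087). It passed the fold threshold without EY replicate 6 (1.03) or N replicate 4 (1.01). In the pooled fit, no call was made among 2 tested ADAMTS genes, 2 membrane-type MMPs, 2 TIMP genes or 2 proprotein convertases. The smallest adjusted p of the ADAMTS list was that of Adamts10, at 0.533, and of the convertases that of Furin, at 0.638.

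The genes whose levels followed a member most closely were ranked by Pearson's r of log2(TPM + 1) over the 10 libraries, which come from 4 lines, so that r mostly reflects line means. The nearest to Plau were Fbp2 (0.996) and Cldn4 (0.99), and the nearest to Plaur were Cavin3 (0.995) and Hist1h2bf (0.99). Timp2 was followed most closely by Ctbp1 (0.99) and Smarcb1 (0.97), and Adamts1 by Rae1 (0.99) and Scd2 (0.99). For St14 the nearest were Nipal4 (0.98) and Bop1 (0.98). For Mmp14 they were Cadm1 (0.93) and Ssbp4 (0.92) and for Adam17 P2ry1 (0.94) and Dlgap5 (0.92).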

How the data were processed

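Poly(A) RNA-seq was done on 6 EY and 4 N libraries. The deposited table gives TPM, which the authors computed and scaled within each library; columns sum to between 998358 and 998951. The submitters' processing notes name STAR 2.7.9, SAMtools 1.7, HTSeq 0.13.5, DESeq2 1.34.0 and build GRCm39. The paper's methods describe Kallisto TPM for enrichment analysis, against a human transcriptome with the highest transcript standing for its gene. Which step made this table is not stated in the sources used here, and such a reference could affect the level of a gene. The table lists only genes with a value above 0 in 6 or more libraries. Depth is unknown, so no counting interval is given.

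Genes that reached 1 TPM in 4 libraries or more were tested on log2(TPM + 1) with limma 3.58.1 (trend and robust options) in R 4.3.3. Fold changes on this scale understate those of low genes. Calls used the study's thresholds, a Benjamini-Hochberg adjusted p under 0.01 over all tested genes and an absolute log2 fold change over 1. A second model had 4 line means, and its F test asked for a range over 1 among EY lines. In ratios, p-values were exact permutation tests adjusted over 5 ratios. The fits were tested on simulated data that held only the spread within lines. The pooled fit was therefore not tested under a spread among EY lines. No columns were identical (highest correlation 0.992). The numbers of line samples did not pair libraries across lines (r from -0.148 to 0.0518), so no block was used in the reported values. Alternatives changed the pseudocount, filter, scaling, variance model, libraries and lines. Leaving N replicate 4 out for pathway genes outside the naming rule was chosen after seeing the data. The members and gene lists were chosen with earlier results of these data known. Named genes were the members, the partners in ratios, pathway genes called in the pooled fit or in all 3 lines in the same direction, the gene with the smallest adjusted p of each list, and for each tested member the 2 genes with the highest correlation among genes with a mean of at least 5 TPM, predicted genes and pseudogenes left out. One gene of the lists is not reported here, and the list counts and ratios leave it out. Others are said to be named after their values were seen.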

Additional observations from a re-analysis of the deposited data

Results flagged for a closer look

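Single libraries stood far from the rest of their group, by Dixon's criterion, in 6 of 46 groups of levels of named genes, where chance gives about 1 in 20, or 2.3. That figure assumes independent libraries and genes. Here libraries share lines and N replicate 4 recurs, so 6 and 2.3 cannot be compared strictly. St14 was at 24.3 TPM in EY replicate 1 (the other EY libraries 29.8 to 31.5 TPM). In N replicate 4, Timp1 was at 16.8 TPM (others 13.5 to 13.8 TPM), Mmp13 at 0.0251 TPM (others listed at 0), Tnf at 0.677 TPM (0.0948 to 0.178 TPM) and Ctsz at 17.9 TPM (12.8 to 13.5 TPM). In N replicate 3, Tspan15 was at 1.32 TPM (others 0.612 to 0.647 TPM).

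The effect against N differed between the EY lines for 3 members, by an adjusted p under 0.01 in limma's F test and a range over 1. Line means spanned 2.25 on the log2 scale for Timp2, 1.71 for Plau and 3.45 for Adamts1. Plaur also had an adjusted p under 0.01 in that test (0.00282), with a range of 0.57.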

How the results depend on the processing

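The count of called members, 0 in the pooled comparison, became 1 without line EY3960 (Timp2) and 2 without line EY4174 (Plau and Plaur). It stayed 0 with any single library left out. Over all tested genes, 413 were called as reported, 444 without EY3960 and 587 without EY4174. The count with an adjusted p under 0.01, 2, became 1 with the line as a random block, 3 without EY3960, 3 without EY4174 and 0 both with a replicate block by sample number and with the mean of each line. Called members in EY4174, 1 as reported, became 2 with a pseudocount of 0.1 and ranged from 1 to 2 with a library left out (2 without N replicate 1, and 2 without EY replicate 6, where EY4174 has 1 library assumed to vary like the other lines). The 5 called pathway genes became 9 with a pseudocount of 0.1 and 8 with 0.5. They became 2 when 1 TPM was required in all libraries, 2 with the line as a random block and 2 with that replicate block. Without EY3960 there were 8, without EY4028 3 and without EY4174 15. With a library left out they ranged from 3 (without N replicate 1, 2 or 3) to 8 (without EY replicate 6). The total over all tested genes moved as well. It was 552 with a pseudocount of 0.1, 515 with 0.5 and 216 when 1 TPM was required in all libraries. With the line as a random block it was 203, with the replicate block 221 and without EY4028 369.

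Directions reversed as follows. Under the replicate block by sample number, Furin was at -9.45e-05 and Mmp14 in EY4174 at 0.042. Without EY3960, Adamts1 was at 0.63 and the Adamts1 to Timp3 ratio at 0.58. Without EY4028, Furin was at -0.0038, Adamts10 at -0.0125 and Timp3 at -0.0116. With a library left out, Adamts1 ranged from -0.72 to 0.0048, Mmp14 in EY4174 from -0.14 to 0.054 and Adam17 in EY3960 from -0.0077 to 0.15. For these changes the cause was not tested. Members called among EY lines were Timp2, Plau and Adamts1 under the alternatives run for that test, except a filter of 1 TPM in all libraries, where Adamts1 was not tested. The line as a random block, a line left out and the mean of each line were not run for it. Single N or EY libraries left out used the gene set of the full filter. The single N line and the unknown depth limit all comparisons.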
